A study of Rattus norvegicus with 10 samples.

Results

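The Slc25 genes encode the mitochondrial carriers, a family of membrane proteins that move metabolites, nucleotides, cofactors and ions, in most cases across the inner mitochondrial membrane. Members were all genes with a symbol made of Slc25a and a number in the table that pairs Ensembl IDs with rat gene symbols. This rule gave 44 gene IDs with 42 symbols, of 16129 IDs in that table and of 23487 genes in the count table. Slc25a22 and Slc25a51 each carry 2 IDs, so reads of such a gene may be split between near-identical copies, and Slc25a52 is annotated as a pseudogene. No ID carried the symbols Slc25a21, Slc25a31, Slc25a41, Slc25a48, Slc25a53 or Slc25a54.

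Polyadenylated RNA was sequenced from 10 libraries of primary Sprague-Dawley rat oligodendrocyte progenitors (OPCs) and oligodendrocytes (OLs), in 5 groups of 2. All cells were shaken off mixed glial cultures from cortices of newborn pups and transfected, per the labels, with 30 nM of a synthetic oligonucleotide, although a methods paragraph of the study names lentiviral delivery. OLs received a scrambled mimic (OL miR-ctl), a miR-145-5p mimic (OL miR-145) or miR-145-5p and miR-219 mimics together (OL miR-145+miR-219), were grown with triiodothyronine, ciliary neurotrophic factor and N-acetyl cysteine, and were collected after 5 days. OPCs received a scrambled inhibitor (OPC anti-miR-ctl) or a miR-145-5p inhibitor (OPC anti-miR-145), were grown with basic fibroblast growth factor and platelet-derived growth factor AA, and were collected after 24 h. The cultures are enriched rather than pure, the libraries do not measure the mature miRNAs, and one label of the OL miR-145 libraries also names miR-219, whereas their titles do not; the titles were followed. The study describes a replicate of primary cell culture as cells from an individual mouse, and makes no such statement for rat cells. No source ties the single libraries to animals or says whether libraries with the same number in different groups shared one.

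Mitochondrial carriers connect pathways of the cytosol with those of the matrix. The ADP/ATP and phosphate carriers serve oxidative phosphorylation, the aspartate-glutamate carriers take part in the shuttle that brings reducing equivalents of NADH into the matrix, and the citrate carrier exports the carbon from which fatty acids and cholesterol are made in the cytosol. OLs build large amounts of myelin lipid, and loss of the aspartate-glutamate carrier Slc25a12 is known to impair myelin formation.

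The miRNA mimics act through the seed, which pairs with target mRNAs, whereas the inhibitor blocks the miRNA itself. Mature sequences from RefSeq (GRCr8) are shown with the seed, bases 2 to 8, in capitals. The miR-145-5p sequence is that of the molecule added or blocked. The titles name miR-219 without saying which form, and rno-miR-219a-5p was assumed. The seeds of the 2 miRNAs differ.
rno-miR-145-5p: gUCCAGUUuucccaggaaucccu
rno-miR-219a-5p: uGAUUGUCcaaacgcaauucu

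Library totals ranged from 33505706 to 42684206 estimated counts, and levels are given as CPM, counts scaled to a common library size with TMM factors over the 10 libraries. CPM is not corrected for transcript length, so levels are compared between libraries and never between genes. The summed level of 10 genes of maturing OLs was 16890 to 31042 CPM in the OL miR-ctl libraries against 1255 to 1324 CPM in OPC anti-miR-ctl. That of 6 OPC genes was 1455 to 2107 CPM against 4087 to 4220 CPM, so both sums went with the labels. By the test described below, 8 of the 10 were called higher in OLs and 0 lower. Of the 6 OPC genes, 5 were called lower in OLs and 1 higher. Astrocyte genes, 7 in the list, summed to 5016 to 5859 CPM in OL miR-ctl, 8317 to 12094 CPM in OL miR-145 and 5960 to 10020 CPM in OL miR-145+miR-219, but to only 294 to 457 CPM in the 4 OPC libraries. In bulk RNA, fewer cells of a type and less RNA per cell cannot be told apart.

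Together the members took 0.252% ± 0.00252 of all counts in OPC anti-miR-ctl and 0.266% ± 0.0103 in OPC anti-miR-145 (SD, n = 2 each). The share was 0.311% ± 0.0148 in OL miR-ctl, 0.340% ± 0.0482 in OL miR-145 and 0.321% ± 0.0361 in OL miR-145+miR-219 (SD, n = 2 each). No OL library overlapped an OPC library, while the 3 OL groups overlapped. The share is weighted toward members with many counts. Slc25a4 alone averaged 1102 CPM in OL miR-ctl and 555 CPM in OPC anti-miR-ctl. The member sums were 3097 to 3290 CPM and 2341 to 2372 CPM in these groups. Between them the log2 difference was positive for 29 members and negative for 15.

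**Figure D1:**
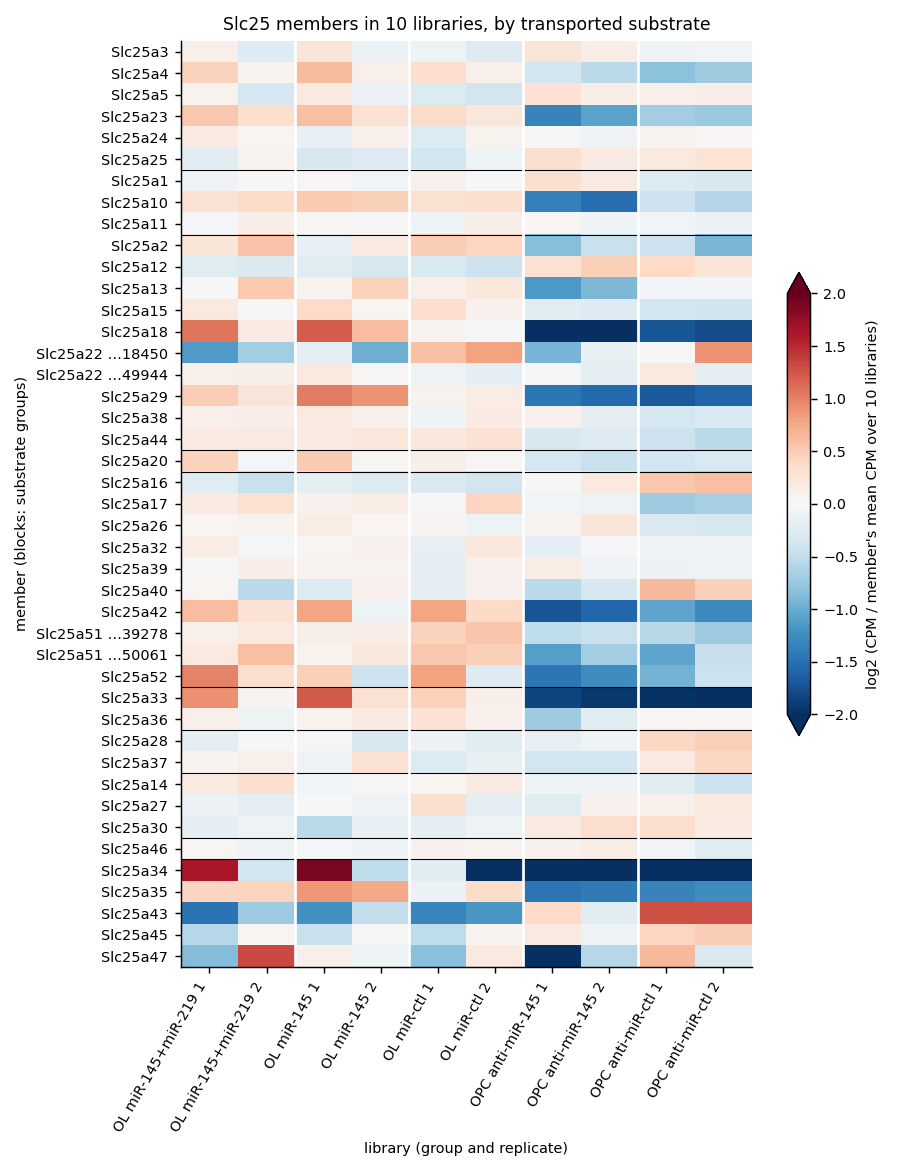
Each cell of the map is the log2 ratio of a member's CPM in 1 library to its mean CPM over the 10 libraries (colour scale ends at −2 and 2), with members in rows, grouped by transported substrate between black lines, and libraries in columns. The OL and OPC columns differ in both directions, with Slc25a33, Slc25a29 and Slc25a18 blue in OPCs and Slc25a43 red in OPC anti-miR-ctl.

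The first question was whether blocking miR-145 in OPCs moved the carriers. It moved some of them, in both directions: with the inhibitor, 3 of the 43 members tested were higher and 10 were lower, where called means an adjusted p below 0.05 over all genes (edgeR's quasi-likelihood F test, p adjusted by the method of Benjamini and Hochberg). Among all 15496 genes tested, 12.1% were called higher and 16.0% lower (4348 in all), so the called share of the members, 30.2%, was near that of all genes. The citrate carrier Slc25a1 and the peroxisomal carrier Slc25a17 rose, while the dicarboxylate carrier Slc25a10, the aspartate-glutamate carrier Slc25a13, the glutamate carrier Slc25a18 and both mitoferrins fell. The median log2 fold change of the members was −0.02, with a range from −1.16 to 0.63, and the median size of change was 0.28 against 0.27 over all genes. The 2 libraries of each group did not overlap for 31 members, 72.1% of those tested, against 67.8% of all genes. Slc25a47, at 0.0248 to 0.337 CPM over the 10 libraries, failed the count filter in this comparison and passed it in the others.

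Of the 3 carboxylate carriers, 1 rose, 1 fell and 1 was not called. Slc25a1, which exports citrate, had 106 and 95.6 CPM in the OPC anti-miR-145 libraries and 69.3 and 67.1 CPM in OPC anti-miR-ctl. The inhibitor libraries were the highest of all 10 for this gene, since the 6 OL libraries held 80.1 to 88.9 CPM. The log2 fold change was 0.58 ± 0.09 (SE, adjusted p = 0.00402).

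Slc25a10, which exchanges malate and succinate for phosphate, had 31.1 and 27.6 CPM with the inhibitor and 59.6 and 52.8 CPM in the control OPCs. Both inhibitor libraries lay below each of the other 8, of which the OL libraries held 97.2 to 115 CPM. The log2 fold change was −0.92 ± 0.11 (SE, adjusted p = 0.00102), the smallest adjusted p of any member in this comparison. The oxoglutarate carrier Slc25a11 had 76.7 and 70.4 CPM against 71.5 and 68.9 CPM, and the groups overlapped.

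Among the 10 IDs for amino acid carriers, 2 fell and none rose. Slc25a13, also known as citrin, had 5.96 and 7.08 CPM with the inhibitor against 12.7 and 12.6 CPM without, a log2 fold change of −0.94 ± 0.12 (SE, adjusted p = 0.00184). All 6 OL libraries, at 13.2 to 18.9 CPM, also lay above both inhibitor libraries. Its paralog Slc25a12, also known as aralar, had 67.4 and 76.0 CPM against 72.4 and 65.0 CPM, and those groups overlapped (log2 fold change 0.08 ± 0.09, SE, adjusted p = 0.587).

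Slc25a18, a glutamate carrier that is rich in astrocytes of the brain, had 5.06 and 5.72 CPM with the inhibitor and 9.96 and 9.54 CPM in control OPCs. The log2 fold change was −0.84 ± 0.13 (SE, adjusted p = 0.00339). The astrocyte list summed to 294 and 355 CPM in the inhibitor libraries against 457 and 427 CPM, with 2 of its 7 genes called higher (Gfap and Sox9), 2 called lower (Slc1a2 and Slc1a3) and none at 0 in these libraries; its part in the result was not tested.

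Both iron importers of the inner membrane fell. Slc25a28, or mitoferrin-2, had 13.0 and 13.8 CPM against 19.4 and 20.3 CPM, and the log2 fold change was −0.55 ± 0.10 (SE, adjusted p = 0.00677). Slc25a37, or mitoferrin-1, had 3.97 CPM in each inhibitor library against 5.89 and 6.93 CPM, and the log2 fold change was −0.67 ± 0.16 (SE, adjusted p = 0.0192). Neither pair of groups overlapped, but without replicate 2 of OPC anti-miR-ctl neither call held (adjusted p = 0.0566 for Slc25a28 and 0.145 for Slc25a37).

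Of the 11 IDs for carriers of cofactors and vitamins, 2 rose and 3 fell. Slc25a17, which moves coenzyme A and related cofactors into peroxisomes, had 96.9 and 94.2 CPM against 61.3 and 63.4 CPM, a log2 fold change of 0.63 ± 0.08 (SE, adjusted p = 0.00171). Slc25a26, which imports S-adenosylmethionine, had 7.47 and 8.47 CPM against 5.85 and 5.59 CPM, a log2 fold change of 0.49 ± 0.13 (SE, adjusted p = 0.0316). That call was lost without either OPC anti-miR-ctl library (adjusted p = 0.191 and 0.23) and with DESeq2 (adjusted p = 0.067).

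The glutathione carriers are a pair of paralogs, of which 1 fell. Slc25a40 had 2.18 and 2.54 CPM with the inhibitor against 4.98 and 4.41 CPM, a log2 fold change of −0.97 ± 0.18 (SE, adjusted p = 0.00771). Slc25a39, the other glutathione carrier, had 138 and 117 CPM against 116 and 117 CPM, and its groups overlapped (log2 fold change 0.14 ± 0.11, SE, adjusted p = 0.348). Of 4 glutathione enzymes, Gclc (log2 fold change −0.38), Gclm (−0.52) and Gsr (−0.53) fell and Gss rose (0.70).

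Slc25a42 and Slc25a16 also fell. Slc25a42, which imports coenzyme A, had 11.9 and 13.0 CPM against 18.6 and 16.1 CPM (log2 fold change −0.46 ± 0.11, SE, adjusted p = 0.0232), and Slc25a16, linked to coenzyme A as well, had 26.7 and 30.2 CPM against 38.3 and 40.1 CPM (log2 fold change −0.45 ± 0.10, SE, adjusted p = 0.0144). The groups did not overlap for either gene. Without replicate 1 of OPC anti-miR-ctl neither was called (adjusted p = 0.227 and 0.0536), and Slc25a16 was not called without replicate 2 either (adjusted p = 0.104).

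In the group of adenine nucleotide and phosphate carriers, 1 of 6 was called. Slc25a23, which exchanges ATP-magnesium for phosphate under control of calcium, had 36.7 and 43.8 CPM against 57.3 and 55.2 CPM, a log2 fold change of −0.47 ± 0.10 (SE, adjusted p = 0.0151), and was not called without replicate 1 (adjusted p = 0.0763) or replicate 2 (adjusted p = 0.0519) of OPC anti-miR-ctl. The ADP/ATP carrier Slc25a4 had 722 and 646 CPM against 535 and 574 CPM, and the phosphate carrier Slc25a3 had 426 and 394 CPM against 339 and 346 CPM. Both pairs of groups were apart with the inhibitor libraries above, but the adjusted p missed the threshold, at 0.0511 for Slc25a4 (log2 fold change 0.32 ± 0.10, SE) and 0.0551 for Slc25a3 (0.28 ± 0.09, SE). DESeq2 called both (adjusted p = 0.0165 and 0.0276). The second ADP/ATP carrier, Slc25a5, had 413 and 372 CPM against 365 and 373 CPM (log2 fold change 0.11 ± 0.09, SE, adjusted p = 0.423).

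The remaining member that fell was Slc25a43, whose substrate is not settled, with 2.43 and 1.59 CPM against 4.51 and 4.58 CPM (log2 fold change −1.16 ± 0.24, SE, adjusted p = 0.012). The acylcarnitine carrier Slc25a20 had 58.0 and 54.4 CPM against 56.8 and 60.1 CPM (log2 fold change −0.04 ± 0.09, SE, adjusted p = 0.761). Slc25a46, an outer membrane protein that acts in mitochondrial dynamics, had 47.3 and 48.9 CPM against 43.0 and 38.6 CPM (log2 fold change 0.25 ± 0.09, SE, adjusted p = 0.0767). None of the 3 carriers that resemble uncoupling proteins, Slc25a14, Slc25a27 and Slc25a30, was called, nor was either pyrimidine nucleotide carrier, Slc25a33 or Slc25a36.

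The number of called members depended on single libraries. It was 8 without replicate 2 of OPC anti-miR-ctl and 23 without replicate 2 of OPC anti-miR-145, against 13 with all 4. In 1 fit of all 5 groups 9 members were called, Slc25a18 (adjusted p = 0.0974), Slc25a23 (0.058), Slc25a42 (0.303) and Slc25a43 (0.0501) being lost. Slc25a1, Slc25a10, Slc25a13, Slc25a17 and Slc25a40 were called in all 10 alternative fits tried for single members, 4 that left out 1 library and 6 of other kinds.

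Enzymes that work with these carriers were also measured. Of 6 genes for citrate and fatty acid metabolism, 2 rose and none fell, namely Acly, which splits exported citrate (log2 fold change 0.63), and Acss2, which makes acetyl-CoA from acetate (0.48). Of 6 NADH shuttle enzymes 1 was called, the cytosolic aspartate aminotransferase Got1 (log2 fold change 0.68), and of 4 carnitine shuttle enzymes 1 was called, Cpt1a, which makes acylcarnitines (−0.46). Among 4 mitochondrial folate enzymes Shmt2 (log2 fold change 0.59) and Aldh1l2 (0.93) rose. Mtch1 (log2 fold change 0.38) and Mtch2 (0.27), outer membrane relatives of the carriers without an Slc25 symbol in the table, rose, as did Timm29 (0.34), 1 of 7 genes for carrier import, and the nuclear receptor Esrra (0.51), 1 of 6 regulators of mitochondrial biogenesis. None of the 2 pyruvate carrier subunits, 3 outer membrane channels, 2 N-acetylaspartate enzymes or 6 haem and iron-sulfur genes was called.

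Genes of other cell types moved as well. In the microglia list 4 of 8 genes were called higher and 4 lower, with sums of 818 to 1009 CPM in the inhibitor libraries and 899 to 961 CPM in the controls. In the neuron list 3 of 5 were called higher, with sums of 114 to 119 CPM against 74.6 to 77.3 CPM. No gene of either list was at 0 in these libraries. Their part in the members' changes was not tested.

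**Figure D2:**
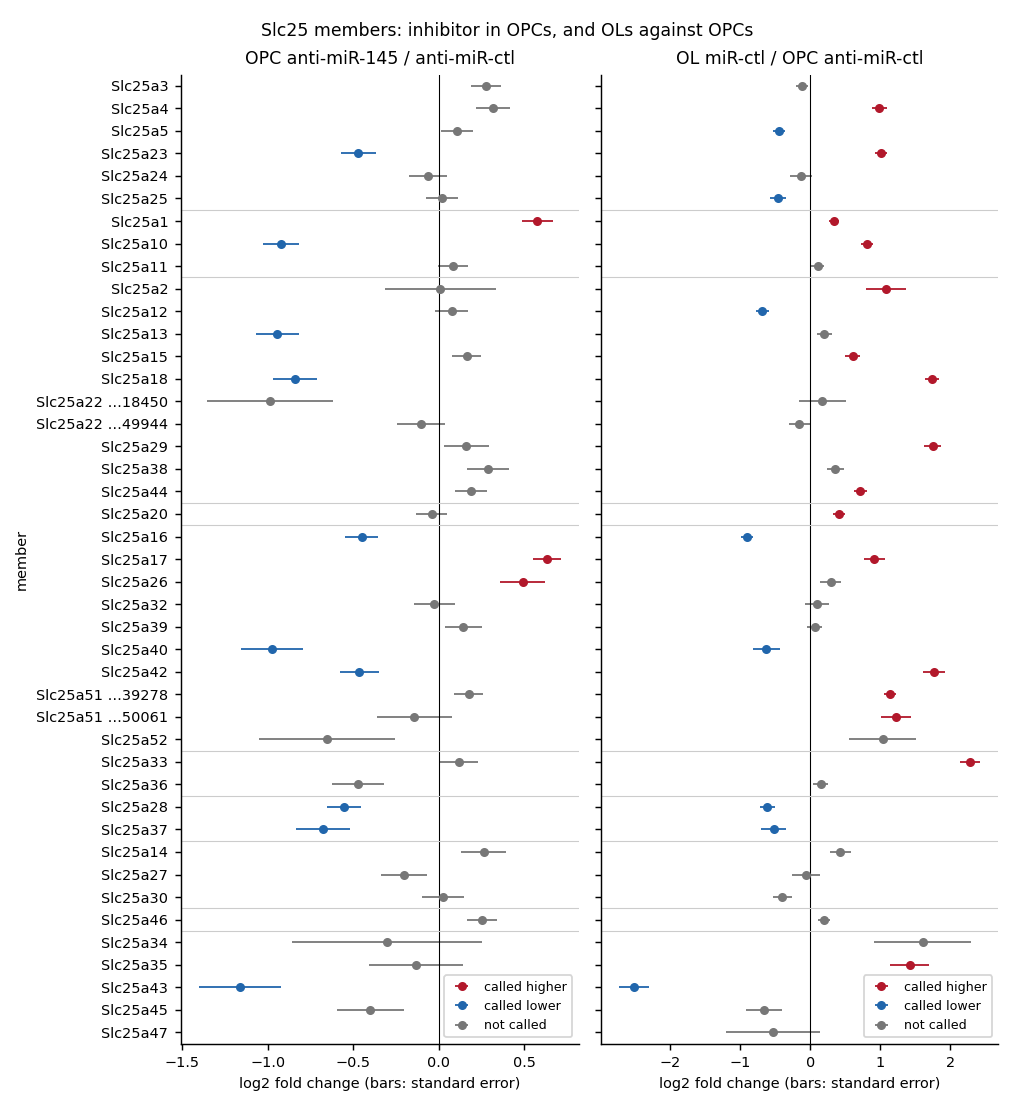
Points give the log2 fold change of each member and bars its standard error, for OPC anti-miR-145 against OPC anti-miR-ctl on the left and OL miR-ctl against OPC anti-miR-ctl on the right, with called members in red (higher) or blue (lower). On the left 3 members are red and 10 blue, and on the right 16 are red and 8 blue, 1 called member not being drawn.

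Promoter sequences are shown for 2 members that rose (Slc25a1 and Slc25a17) and 2 that fell (Slc25a10 and Slc25a13) in all of these fits. RefSeq (GRCr8) had an entry for 33 of the 44 IDs. The 250 bases before the start of each gene were searched on both strands for the CCAAT box (CCAAT), a core of ETS factors (CCGGAAG), a core of the NRF1 site (GCGCATGC) and an element bound by estrogen-related receptors (AAGGTCA), whose matches do not overlap in the windows printed. Capitals mark the matches, and each sequence reads toward the gene. The windows are chr11:96559804-96560053 (plus strand) for Slc25a1, chr7:114767164-114767413 (minus strand) for Slc25a17, chr10:106264146-106264395 (plus strand) for Slc25a10 and chr4:35328361-35328610 (minus strand) for Slc25a13.
Slc25a1: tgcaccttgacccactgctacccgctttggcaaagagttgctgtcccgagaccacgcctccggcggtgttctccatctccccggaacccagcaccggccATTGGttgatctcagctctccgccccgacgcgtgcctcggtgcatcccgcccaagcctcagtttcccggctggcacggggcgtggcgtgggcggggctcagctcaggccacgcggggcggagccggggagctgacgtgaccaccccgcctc
Slc25a17: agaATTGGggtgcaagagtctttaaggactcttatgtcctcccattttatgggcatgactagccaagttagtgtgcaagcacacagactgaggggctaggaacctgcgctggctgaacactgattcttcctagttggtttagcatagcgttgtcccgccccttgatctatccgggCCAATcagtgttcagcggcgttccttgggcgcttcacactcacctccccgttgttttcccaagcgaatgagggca
Slc25a10: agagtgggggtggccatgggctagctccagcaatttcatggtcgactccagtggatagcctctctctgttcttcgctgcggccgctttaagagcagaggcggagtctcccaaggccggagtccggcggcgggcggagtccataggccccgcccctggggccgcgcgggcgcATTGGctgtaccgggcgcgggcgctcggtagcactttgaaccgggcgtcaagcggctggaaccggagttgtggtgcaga
Slc25a13: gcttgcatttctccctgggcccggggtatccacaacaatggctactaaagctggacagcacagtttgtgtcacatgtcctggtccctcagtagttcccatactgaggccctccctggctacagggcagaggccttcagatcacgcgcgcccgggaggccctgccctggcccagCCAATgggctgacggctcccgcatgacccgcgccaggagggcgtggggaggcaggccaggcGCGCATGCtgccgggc

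The letters of the CCAAT box were in 19 of 33 member promoters (57.6%) and in 34.3% of 27457 promoters of all genes. These 27457 were taken whether or not the gene was tested here, and were not matched to the members for expression or base content. The ETS core was in 5 (15.2%, against 7.74% of all), namely Slc25a3, Slc25a4, Slc25a14, Slc25a20 and Slc25a38, the NRF1 core was in 1 (3.03%, against 2.38%), Slc25a13, and the estrogen-related receptor element in 1, Slc25a34 (3.03%, against 3.77%). The CCAAT letters were in both promoters found for members that rose with the inhibitor, in 5 of 9 for members that fell and in 11 of 21 for members not called. In the comparison of control OLs with control OPCs, they were in 12 of 15 promoters of members higher in OLs, 2 of 7 of members lower and 5 of 11 of members not called. The split by call was made for members only, so the matching shares over all genes are not known. A link between these letters and the calls was not tested. The IDs with no entry included Slc25a26, Slc25a30, Slc25a32, Slc25a36, Slc25a37, Slc25a46, Slc25a52, both IDs of Slc25a22 and ENSRNOG00000039278 of Slc25a51.

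The second question was how carriers differ between control OLs and control OPCs. Stage, time in culture, growth factors, the kind of oligonucleotide and the level of genes of other cell types differ together here and cannot be told apart. In OL miR-ctl, 17 of 44 members were higher than in OPC anti-miR-ctl and 8 were lower, against 28.8% and 28.7% of all 15721 genes called in each direction. The pyrimidine nucleotide carrier Slc25a33, the basic amino acid carrier Slc25a29, the glutamate carrier Slc25a18 and the coenzyme A carrier Slc25a42 had the largest differences upward among the called members, and Slc25a43 downward. The median log2 difference of the members was 0.25, from −2.52 to 2.29, with a median size of 0.61 against 0.58 over all genes. Groups were apart for 36 members, 25 of them with OLs higher, which is 81.8% of the members against 81.7% of all genes.

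Slc25a33, which brings pyrimidine nucleotides into mitochondria, had 57.4 and 45.3 CPM in OL miR-ctl and 10.5 and 10.4 CPM in OPC anti-miR-ctl, a log2 difference of 2.29 ± 0.14 (SE, adjusted p = 0.0002, edgeR). Its paralog Slc25a36 had 35.2 and 30.4 CPM against 29.5 and 29.6 CPM and was not called (adjusted p = 0.28). The OPC libraries with the inhibitor held 11.6 and 10.9 CPM of Slc25a33, so all 4 OPC libraries lay below all 6 OL libraries (43.2 to 97.6 CPM).

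Among amino acid carriers, 5 of 10 IDs were called higher in OLs, 1 was lower and 4 were not called. Slc25a29 had 21.9 and 23.3 CPM against 6.50 and 6.91 CPM (log2 difference 1.75 ± 0.12, SE, adjusted p = 0.000238). Slc25a18 had 34.0 and 31.6 CPM against 9.96 and 9.54 CPM (1.75 ± 0.10, SE, adjusted p = 0.000163), while 6 of the 7 astrocyte genes were called higher in OLs as well; their part in it was not tested. The branched-chain amino acid carrier Slc25a44 (log2 difference 0.72) and the ornithine carriers Slc25a15 (0.60) and Slc25a2 (1.09) were also higher. Slc25a12 was lower, with 44.3 and 41.2 CPM against 72.4 and 65.0 CPM (−0.69 ± 0.09, SE, adjusted p = 0.00235), and the 6 OL libraries all lay below the 4 OPC libraries. Slc25a13 had 14.1 and 15.2 CPM against 12.7 and 12.6 CPM and was not called (0.20 ± 0.11, SE, adjusted p = 0.175).

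The ADP/ATP carriers differed in opposite directions. Slc25a4 had 1188 and 1016 CPM in OLs against 535 and 574 CPM in OPCs, a log2 difference of 0.99 ± 0.11 (SE, adjusted p = 0.00131). Slc25a5, the form of proliferating cells, had 280 and 262 CPM against 365 and 373 CPM, a log2 difference of −0.45 ± 0.08 (SE, adjusted p = 0.0065). The Slc25a5 call was lost without replicate 1 (adjusted p = 0.0629) or replicate 2 (adjusted p = 0.0796) of OPC anti-miR-ctl, whereas that of Slc25a4 held in all 10 fits. The phosphate carrier Slc25a3 had 332 and 299.8 CPM against 339 and 346 CPM (−0.12 ± 0.09, SE, adjusted p = 0.29). Slc25a23 was higher in OLs (120.0 and 108 CPM against 57.3 and 55.2 CPM, log2 difference 1.02 ± 0.09, SE, adjusted p = 0.00051), and its relative Slc25a25 was lower (49.7 and 60.5 CPM against 73.6 and 77.4 CPM, −0.46 ± 0.12, SE, adjusted p = 0.0218).

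**Figure D3:**
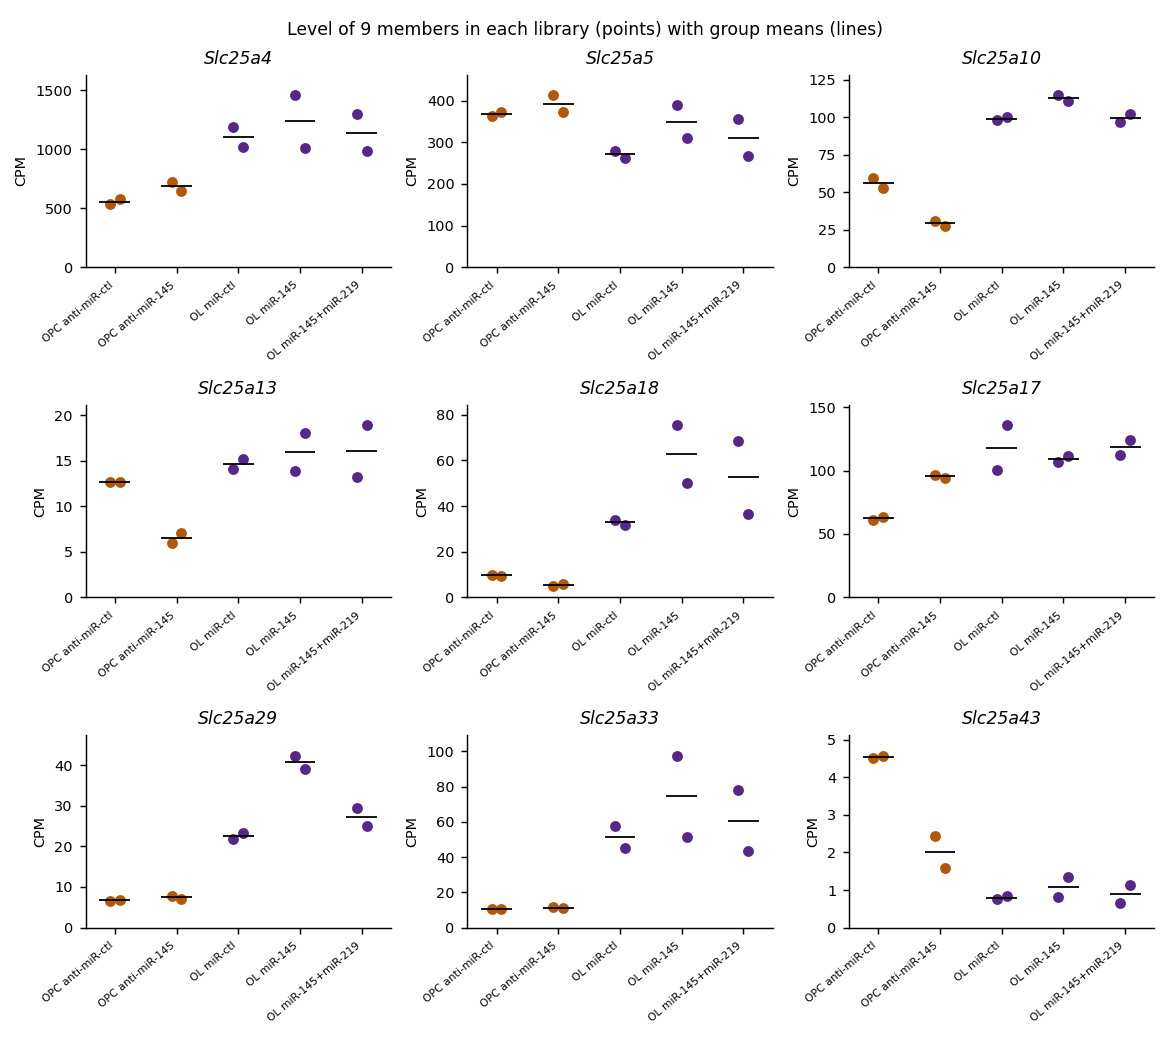
Points are the CPM of 9 members in each library, orange for OPCs and purple for OLs, with the group mean as a line and every axis starting at 0. Slc25a4 is higher and Slc25a5 lower in control OLs than in control OPCs, and Slc25a10 and Slc25a13 are lowest in the 2 OPC anti-miR-145 libraries.

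For cofactors, 5 of 11 IDs were higher in OLs and 2 were lower. Slc25a42 had 67.2 and 51.1 CPM against 18.6 and 16.1 CPM (log2 difference 1.77 ± 0.16, SE, adjusted p = 0.000689). Both IDs of the NAD carrier Slc25a51 were higher, ENSRNOG00000039278 at 155 and 166 CPM against 76.3 and 68.8 CPM (1.14 ± 0.09, SE, adjusted p = 0.000378) and ENSRNOG00000050061 at 31.4 and 30.0 CPM against 10.4 and 15.8 CPM (1.23 ± 0.21, SE, adjusted p = 0.006). Slc25a17 was higher too (log2 difference 0.92). Slc25a16 was lower, at 21.6 and 20.4 CPM against 38.3 and 40.1 CPM (−0.91 ± 0.09, SE, adjusted p = 0.000923), as was Slc25a40 at 2.76 and 3.35 CPM against 4.98 and 4.41 CPM (−0.63 ± 0.20, SE, adjusted p = 0.0416). The Slc25a40 call did not hold without OL miR-ctl replicate 1 (adjusted p = 0.067), with DESeq2 (0.0724) or in 1 fit of all 5 groups (0.0655). Slc25a39 had 111 and 133 CPM against 116 and 117 CPM, with overlapping groups (0.06 ± 0.11, SE, adjusted p = 0.647).

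Citrate, dicarboxylate and acylcarnitine carriers were higher in OLs. Slc25a1 had 88.9 and 84.4 CPM against 69.3 and 67.1 CPM (log2 difference 0.34 ± 0.07, SE, adjusted p = 0.0129), Slc25a10 had 98.0 and 100.4 CPM against 59.6 and 52.8 CPM (0.82 ± 0.09, SE, adjusted p = 0.00111), and Slc25a20 had 80.5 and 75.5 CPM against 56.8 and 60.1 CPM (0.41 ± 0.08, SE, adjusted p = 0.00969). The groups did not overlap for any of these genes. Without replicate 1 of OPC anti-miR-ctl, Slc25a1 (adjusted p = 0.124) and Slc25a20 (adjusted p = 0.125) were not called, nor were they without replicate 2 (adjusted p = 0.155 and 0.0766). Of the carnitine shuttle enzymes, 3 of 4 were called higher in OLs, Cpt1a with a log2 difference of 2.22, Cpt2 with 1.37 and Crat with 0.60.

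Iron importers were lower in OLs. Slc25a28 had 13.5 and 12.4 CPM against 19.4 and 20.3 CPM (log2 difference −0.62 ± 0.11, SE, adjusted p = 0.00635) and Slc25a37 had 4.27 and 4.67 CPM against 5.89 and 6.93 CPM (−0.53 ± 0.17, SE, adjusted p = 0.0485). Neither gene was called without replicate 1 (adjusted p = 0.0595 and 0.121) or replicate 2 (adjusted p = 0.0774 and 0.285) of OPC anti-miR-ctl, and Slc25a37 was not called without OL miR-ctl replicate 1 (adjusted p = 0.0595) or with DESeq2 (adjusted p = 0.0843). Of 6 haem and iron-sulfur genes, 4 were called higher in OLs, including Alas1, the first enzyme of haem synthesis (log2 difference 0.75), and 2 lower.

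Among members whose substrate is not settled, Slc25a43 had 0.754 and 0.829 CPM in OLs against 4.51 and 4.58 CPM in OPCs (log2 difference −2.52 ± 0.22, SE, adjusted p = 0.000549), and Slc25a35 was higher in OLs, at 2.34 and 3.26 CPM against 1.01 and 1.07 CPM (1.42 ± 0.28, SE, adjusted p = 0.00911). Slc25a46 had 47.4 and 46.1 CPM against 43.0 and 38.6 CPM and was not called (0.19 ± 0.09, SE, adjusted p = 0.117). None of the 3 carriers resembling uncoupling proteins was called.

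This comparison also leaned on the control OPC libraries. The number of called members fell from 25 to 13 without replicate 1 of OPC anti-miR-ctl and to 15 without replicate 2, and 13 members were called in all 10 alternative fits. Besides the members named above, Slc25a2, Slc25a15, Slc25a25, Slc25a35 and Slc25a40 lost their call without either library, and Slc25a17 without replicate 1.

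Both subunits of the pyruvate carrier were higher in OLs (Mpc1 with a log2 difference of 1.62 and Mpc2 with 0.79), while all 4 glutathione enzymes were lower, from −1.22 for Gsr to −0.33 for Gclc. Of 7 genes for carrier import 3 were lower and none higher (Tomm70, Timm9 and Agk), and of 6 NADH shuttle enzymes 2 were higher and none lower (Gpd1 with a log2 difference of 2.41 and Got2 with 0.31). Of 6 citrate and fatty acid genes, 2 were higher and 1 was lower, among them Cs (0.29), which makes citrate, and Acaca (−0.51), which commits acetyl-CoA to fatty acids. Aspa, which splits N-acetylaspartate, was higher (log2 difference 2.71), 1 of 2 enzymes of that metabolite. Among 6 regulators of mitochondrial biogenesis, the coactivators Ppargc1a (2.01) and Ppargc1b (1.56) were higher, and Esrra (−0.62) and Nrf1 (−0.50) were lower. Mtch1 was higher (0.94), 1 of 3 carriers with another symbol. No outer membrane channel was called, and 1 of 4 mitochondrial folate enzymes was lower.

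Microglia genes summed to 355 to 537 CPM in OL miR-ctl against 899 to 961 CPM in OPC anti-miR-ctl, with 4 of 8 called lower, and neuron genes to 125 to 129 CPM against 74.6 to 77.3 CPM, with 1 of 5 called higher and 3 lower. Astrocyte genes summed to 5016 to 5859 CPM in OL miR-ctl against 427 to 457 CPM in OPC anti-miR-ctl, with 6 of 7 called higher. The part of these lists in the members' differences was not tested.

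The inhibitor comparison and the stage comparison share the OPC anti-miR-ctl libraries, so a value that is high or low there moves both. Their values for the members are therefore only set side by side. Slc25a10 had log2 changes of −0.92 with the inhibitor and 0.82 in OLs, Slc25a18 of −0.84 and 1.75, Slc25a23 of −0.47 and 1.02, and Slc25a42 of −0.46 and 1.77. For Slc25a43 the values were −1.16 and −2.52, for Slc25a16 −0.45 and −0.91, for Slc25a40 −0.97 and −0.63, for Slc25a28 −0.55 and −0.62, and for Slc25a37 −0.67 and −0.53. Slc25a1 had 0.58 and 0.34, and Slc25a17 had 0.63 and 0.92.

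The third question was whether mimics in OLs moved the carriers. Adding miR-145 to OLs gave no called member, and no gene of the 15461 tested was called in either direction (0% by edgeR's quasi-likelihood test). At an unadjusted p below 0.05 there were 6 members, 3 higher and 3 lower, which is 13.6% of the members against 13.4% of all genes (2067). The study itself used DESeq2 for this contrast and reported changed genes in both directions. Here DESeq2 called 649 genes, among them 2 members, Slc25a29 and Slc25a18. The groups were apart for 14 members, 31.8% against 47.3% of all genes. The median log2 fold change of the members was 0.07 and the median size of change 0.14, against 0.21 over all genes. With 2 libraries in each group, an exact permutation test of a single gene cannot give a p below 0.333. None of these fits took the replicate number into account. With that number as a block in edgeR, the calls in the OL comparisons changed, and the closing paragraph gives the counts.

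Slc25a29, which carries lysine and arginine, had the smallest p of the members, with 42.3 and 39.0 CPM in OL miR-145 and 21.9 and 23.3 CPM in OL miR-ctl. These 2 libraries were the highest of all 10 for the gene, and the OL miR-145+miR-219 libraries held 29.4 and 25.0 CPM. The log2 fold change was 0.86 ± 0.12 (SE, adjusted p = 0.158, edgeR), and DESeq2 gave an adjusted p of 8.24e-05.

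Slc25a18 had 75.3 and 50.0 CPM against 34.0 and 31.6 CPM, a log2 fold change of 0.94 ± 0.21 (SE, adjusted p = 0.188 with edgeR and 0.00681 with DESeq2). It was 0.62 without replicate 1 of OL miR-145. The OL miR-145 library with 75.3 CPM also had the highest sum of astrocyte genes, 12094 CPM against 8317 CPM in the other library of that group, and 6 of the 7 astrocyte genes had an unadjusted p below 0.05; their part in the result was not tested. Slc25a51 (ENSRNOG00000039278) was at 121 and 124 CPM against 155 and 166 CPM, a log2 fold change of −0.38 ± 0.11 (SE, adjusted p = 0.236), and its other ID was at 22.8 and 24.9 CPM against 31.4 and 30.0 CPM. Groups were apart for all of these, yet none passed the adjusted threshold with edgeR.

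With both mimics no member was called against OL miR-ctl, nor was any of 15436 genes (0% in each direction, edgeR). Unadjusted p was below 0.05 for 2 members, both lower, 4.55% against 6.19% of all genes (956), and the groups were apart for 11 members, 25.0% against 36.7%. DESeq2 called 106 genes and 1 member. That member was ENSRNOG00000018450 of the glutamate carrier Slc25a22, at 1.19 and 1.60 CPM against 3.89 and 4.51 CPM (log2 fold change −1.59 ± 0.28, SE, adjusted p = 0.789 with edgeR and 0.0104 with DESeq2). In OL miR-145 this ID was at 2.28 and 1.31 CPM. The other ID of the same symbol, with 22.9 and 23.1 CPM against 19.9 and 18.8 CPM, lay the opposite way, so that the gene as a whole cannot be called lower. Slc25a51 (ENSRNOG00000039278) had 121 and 129 CPM against 155 and 166 CPM (−0.35 ± 0.10, SE, adjusted p = 0.8). Its other ID had 24.7 and 32.8 CPM against 31.4 and 30.0 CPM, with overlapping groups (log2 fold change −0.09). Slc25a18 had 68.6 and 36.6 CPM against 34.0 and 31.6 CPM (0.68 ± 0.30, SE, adjusted p = 0.814), or 0.17 without replicate 1 of OL miR-145+miR-219. The library with 68.6 CPM had an astrocyte sum of 10020 CPM and that with 36.6 CPM one of 5960 CPM; the part of these genes was not tested. The miR-145 and miR-145+miR-219 comparisons share the OL miR-ctl libraries.

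**Figure D4:**
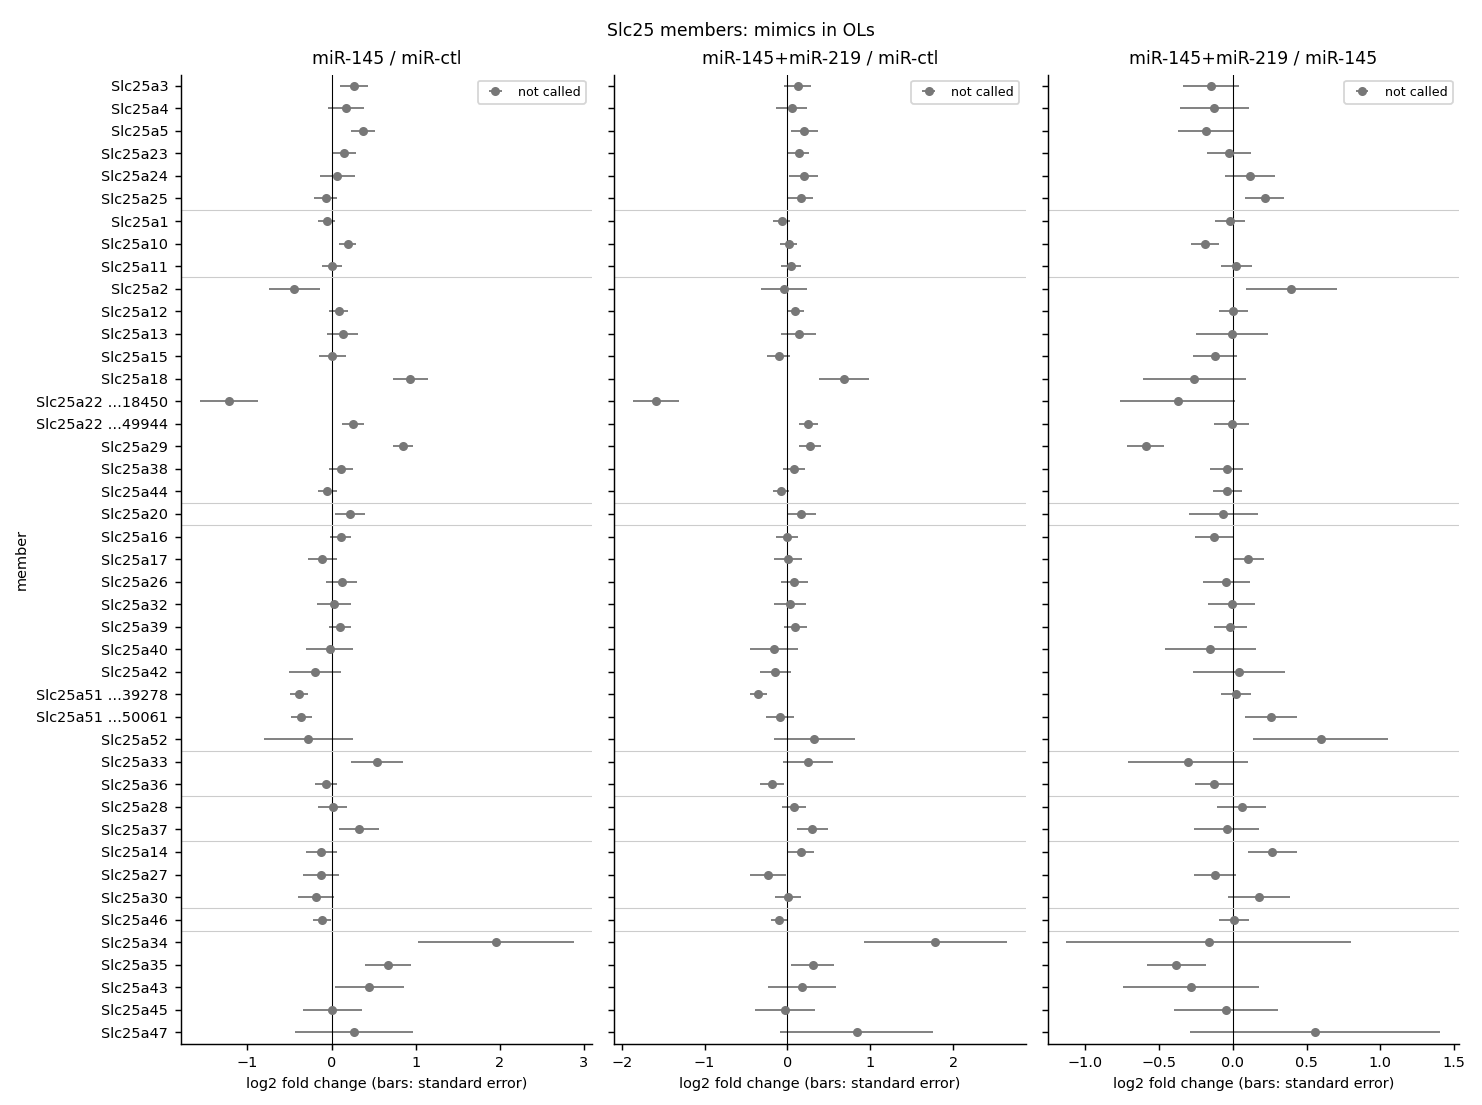
Points are log2 fold changes of each member and bars standard errors for OL miR-145 against OL miR-ctl, OL miR-145+miR-219 against OL miR-ctl, and OL miR-145+miR-219 against OL miR-145, with all points grey because no member was called. Most members lie near 0, and in the comparisons with OL miR-ctl Slc25a34 and Slc25a22 ENSRNOG00000018450 lie farthest out, both at under 5 CPM in every library.

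Between the OL groups with both mimics and with miR-145 alone, no member and none of 15501 genes was called (0%, edgeR), and DESeq2 called 9 genes and no member. Only 1 member, Slc25a29, had an unadjusted p below 0.05, 2.27% against 1.47% of all genes (228), and the groups were apart for 8 members, 18.2% against 24.8%. Slc25a29 had 29.4 and 25.0 CPM against 42.3 and 39.0 CPM (log2 fold change −0.59 ± 0.13, SE, adjusted p = 1). Slc25a10 had 97.2 and 102 CPM against 115 and 111 CPM (−0.19 ± 0.10, SE, adjusted p = 1) and Slc25a35 had 3.41 and 3.45 CPM against 4.62 and 4.27 CPM (−0.38 ± 0.20, SE, adjusted p = 1).

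The nucleotide, phosphate and acylcarnitine carriers varied within OL groups. Slc25a4 had 1295 and 984 CPM with both mimics, 1458 and 1014 CPM with miR-145 and 1188 and 1016 CPM in controls. Slc25a3 had 386 and 301 CPM, 428 and 328 CPM, and 332 and 299.8 CPM in the same order, and Slc25a5 had 355 and 267 CPM, 389 and 311 CPM, and 280 and 262 CPM. Slc25a20 had 102 and 73.0 CPM, 106 and 75.7 CPM, and 80.5 and 75.5 CPM. For each of these 4 genes, replicate 1 lay above replicate 2 in every OL group, and well above it in the groups with a miR-145 mimic. The groups overlapped except for Slc25a5 between miR-145 and controls. Sums of astrocyte and OPC genes were also higher in replicate 1 of every OL group, and those of maturing OL and microglia genes lower. For OL miR-145 the sums of replicates 1 and 2 were 12094 and 8317 CPM for astrocyte genes. Those for maturing OL genes were 15559 and 24891 CPM. The part of these genes in the spread was not tested.

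Over the 6 OL libraries Slc25a1 ranged from 80.1 to 88.9 CPM, Slc25a12 from 41.2 to 46.5 CPM, Slc25a46 from 42.1 to 47.4 CPM and Slc25a39 from 111 to 138 CPM. Slc25a13 ranged from 13.2 to 18.9 CPM, Slc25a28 from 11.7 to 14.5 CPM and Slc25a37 from 4.27 to 6.31 CPM. The least even was Slc25a34, at 3.01 and 0.758 CPM with both mimics, 3.58 and 0.682 CPM with miR-145 and 0.829 and 0.246 CPM in controls. Replicate 1 of each group lay far above replicate 2. Of the 12 lists of related genes, none had a called gene in any of the 3 OL comparisons with edgeR. No gene of any kind was called in those fits, so the lists could not differ from the rest.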

How the data were processed

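Per the labels, stranded mRNA libraries were sequenced on a NextSeq 500. The authors quantified transcripts with Salmon (0.12.0) against rat Rnor6.0 and summarised them to genes with tximport, so the deposited values are estimated counts per gene, not normalized. They were rounded to whole numbers here. Symbols came from a second deposited table, whose columns of the authors' own DESeq2 comparisons (fold changes and p-values) were not used. All columns were mapped to samples by name.

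A gene entered a comparison when 2 or more of its 4 libraries held 5 counts or more, and was tested with edgeR (4.0.16, R 4.3.3; TMM, quasi-likelihood F test), each comparison on its own 4 libraries, with Benjamini-Hochberg adjustment over all genes tested; called means adjusted p below 0.05. SE is the log2 fold change divided by the root of F. The procedure was tested on simulated data. DESeq2 (1.42.0) and other settings were alternatives. Named members were the 5 with the smallest p among those called in each direction in the comparisons with OPCs, the 3 with the smallest p in each OL comparison and 11 fixed carriers; the other called members, the 9 plotted and those described at low level were chosen after their values were seen. Members and lists were chosen with earlier results of these data known. A few genes are not reported by name here and are left out of the figures, but stay in the counts. Promoter positions are GRCr8 and were used for sequence only. Figures were drawn with matplotlib (3.10.9).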

Additional observations from a re-analysis of the deposited data

How the results depend on the processing

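With 2 libraries in a group, 1 library can set the result, and counts at a few CPM limit Slc25a34, Slc25a43, Slc25a47 and Slc25a52. The members' median log2 fold change turned sign in OPCs without OPC anti-miR-145 replicate 1 (0.0060, against −0.025) and for both mimics against miR-145 without OL miR-145 replicate 1 (0.032, against −0.039). In the comparison of OPC anti-miR-145 with OPC anti-miR-ctl the number of called members ranged from 8 to 23 when 1 library was left out (13 with all libraries), and in that of OL miR-ctl with OPC anti-miR-ctl from 13 to 31 (25 with all); DESeq2, other size factors, other count filters and 1 fit of all 5 groups gave 9 to 16 and 22 to 26. Over all genes the OPC count of calls was 4348, with 2657 in 1 fit of all groups, 7133 without OPC anti-miR-145 replicate 2, 2348 and 2407 without OPC anti-miR-ctl replicates 1 and 2, and the stage count was 9042, with 4842 and 4780 without those controls. For OL miR-145 against OL miR-ctl the 0 called members became 2 with DESeq2 and 1 in 1 fit of all groups (79 genes in all), and leaving out a library gave 0 in every OL comparison. For both mimics against OL miR-ctl DESeq2 called 1, and without a count filter 1 gene but no member was called. When 1 library was left out, 3 uncalled values changed sign (the cause was not tested): Slc25a12 in OPCs ranged from −0.021 to 0.15, Slc25a20 in OPCs from −0.11 to 0.021 and Slc25a39 between OLs and OPCs from −0.065 to 0.20.

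Replicate numbers in the labels are shared between groups, but no source used here says that they mark a shared culture, animal or day, and 2 pairs are too few for the correlations to settle it. Deviations from the group means of same-numbered libraries correlated, across genes, at 0.396, 0.457 and 0.622 in the OL comparisons, at −0.141 in OPCs and at 0.065 between stages. With the replicate number as a block the calls in OLs changed: called members were 7 (5 higher, 2 lower) for OL miR-145 against control, with 2272 genes in all, 1 for both mimics against control (132 genes), 1 for both mimics against miR-145 (184 genes), 15 in OPCs and 23 between stages. Crossing the numbers in OPCs, tried after seeing the data, gave 18 called members and 5536 genes, against 3963 genes with the numbers as given.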
